A study of Mus musculus with 16 samples.

Results

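Desmosome genes and epidermal cadherins were followed in mouse skin in which beta-catenin signalling was switched on by 4-hydroxytamoxifen. The set held 10 genes named by symbol as adhesion partners of beta-catenin and plakoglobin: Cdh1, Cdh3, Jup, Dsp, Dsg2, Dsg3, Dsc1, Dsc2, Dsc3 and Pkp1. Of these, 9 had a probe set annotated with that symbol alone, of 12393 genes with such a probe set on the array, and Dsg3 was not analysed here. The 9 genes were covered by 17 probe sets, 15 of which passed the filter on dim signals. The samples were 16 RNA preparations of total skin, each hybridised to 1 Affymetrix Mouse Expression Set 430 A array. Transgenic skin came from line D2 of K14deltaNB-cateninER mice, in which the keratin 14 promoter drives, in basal keratinocytes and the outer root sheath of the hair follicle, an amino-terminally truncated beta-catenin fused to an estrogen receptor domain that is activated by 4-hydroxytamoxifen. It was sampled at 0, 1 and 7 days of treatment with 2, 3 and 3 arrays. Wild-type C57BL/6 skin received the same agent for 0, 1 and 7 days, with 3, 3 and 2 arrays. The labels give no vehicle group, dose, age, sex or body site, and they mention 1 transgenic line only. For 3 wild-type arrays (replicate 3 at day 1 and both at day 7) the labels speak of a single mouse, and for the other 13 of mice in the plural, so pooling is unclear and p-values measure the spread between these preparations.

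Desmosomes are the spot-like junctions that tie the keratin filaments of neighbouring keratinocytes together. Their adhesive proteins are 2 kinds of desmosomal cadherin, the desmogleins (Dsg) and desmocollins (Dsc). Inside the cell these bind plakoglobin (Jup) and plakophilins (Pkp), which hold desmoplakin (Dsp), and desmoplakin holds the keratins. Adherens junctions are built on the classical cadherins E-cadherin (Cdh1) and P-cadherin (Cdh3), whose tails bind beta-catenin or plakoglobin and, through alpha-catenin, actin. Beta-catenin is therefore both a structural partner of these cadherins and the effector of Wnt signalling. In skin, P-cadherin is known from the basal layer and the hair follicle, desmocollin 1 from the upper epidermal layers and desmocollin 3 from the lower ones.

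Values are scaled intensities on a linear scale, after each array was brought to 1 common trimmed mean; changes are differences of group means of log2(scaled intensity + 32), each given with its standard error (SE). The trimmed means of the arrays before scaling ranged from 359 to 548. Tests used limma across 9064 genes, with p-values adjusted by the Benjamini-Hochberg method and a threshold of 0.05. Esr1, whose probe set reads the receptor part of the fusion or the endogenous gene, averaged 405 ± 4.40, 180 ± 111 and 221 ± 33.4 (SD) at days 0, 1 and 7 in transgenic skin, against 29.0 ± 18.9, 32.4 ± 15 and 15.8 ± 3.42 in wild-type skin. The split of all changed genes depended on the scaling. Of the genes past the threshold, 48.0% were higher at day 7 than at day 0 in transgenic skin and 45.0% were higher at day 1 than at day 0 in wild-type skin, against 29.4% and 82.2% with no further scaling of the deposited values. With no further scaling the median of all genes lay at -0.13 in that transgenic comparison and at 0.14 between the genotypes at day 0, against 0.01 and -0.01.

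P-cadherin had the largest log2 change of the members after 7 days of treatment in transgenic skin, while the change of E-cadherin did not pass the test. Cdh3 read 145 and 187 on the transgenic day 0 arrays, 158, 160 and 136 on the day 1 arrays, and 494, 549 and 470 on the day 7 arrays. In wild-type skin Cdh3 read 165, 192 and 184 at day 0, 122, 140 and 223 at day 1, and 73.2 and 159 at day 7. All 3 transgenic day 7 arrays lay above each of the other 13 arrays. Both wild-type day 7 arrays lay below all 3 wild-type day 0 arrays. Cdh3 rose 3.04-fold (day 7 over day 0) in transgenic skin, a log2 change of 1.45 ± 0.22 (SE, adjusted p = 0.000105). At day 7 Cdh3 averaged 504 ± 40.6 in transgenic skin (SD, n = 3) and 116 ± 60.6 in wild-type skin (SD, n = 2), a log2 difference of 1.92 ± 0.22 (adjusted p = 9.43e-06). Of the 2 wild-type day 7 arrays 1 read Cdh3 below its array's 40th percentile, so no fold is given for that pair. At day 1 Cdh3 had not moved in a way that passed the test in either genotype, with log2 changes of -0.10 in transgenic skin (95% interval -0.58 to 0.37) and -0.16 in wild-type skin (95% interval -0.59 to 0.26). In bulk skin a change in the number of cells that carry a transcript and a change in its level per cell cannot be told apart.

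**Figure D1:**
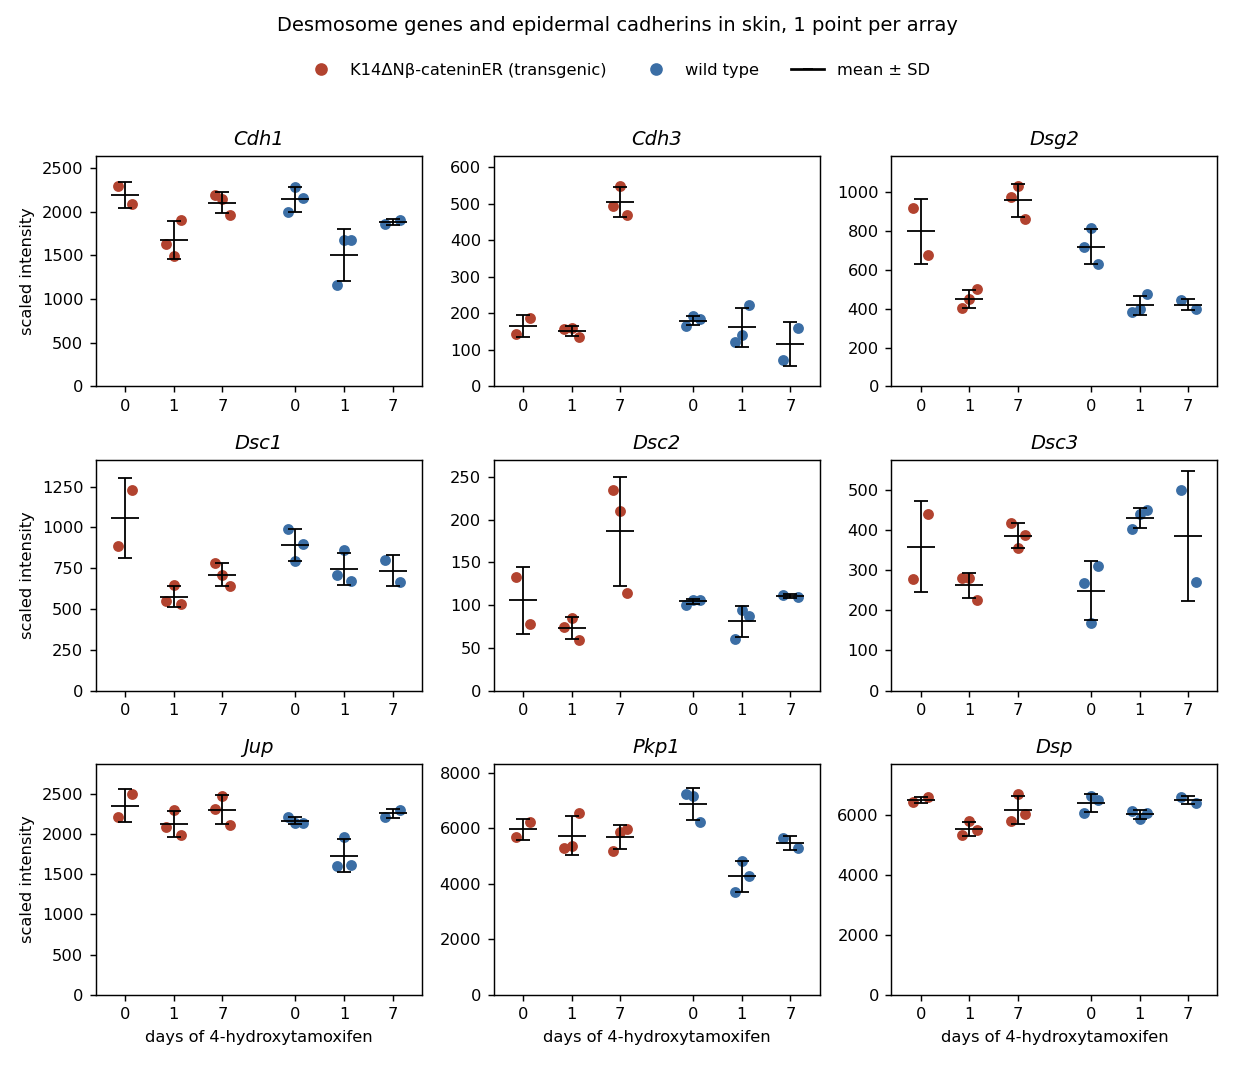
Scaled intensity (linear axis from 0) of the 9 measured genes on each of 16 arrays, transgenic groups on the left and wild-type groups on the right of each panel, by days of 4-hydroxytamoxifen; points are arrays and black bars are means ± SD. Cdh3 stands at 470 to 549 on the 3 transgenic day 7 arrays and at 73.2 to 223 on the other 13.

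In wild-type skin the log2 change of Cdh3 from day 0 to day 7 was -0.58 ± 0.22 and did not pass the test (adjusted p = 0.103), and the wild-type day 7 replicates differed from each other (73.2 and 159). Without wild-type day 7 replicate 2, which left 1 array in that group, the change became -1.01. The day 7 change differed between transgenic and wild-type skin by 2.03 ± 0.32 on the log2 scale (interaction term, adjusted p = 0.000403).

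E-cadherin (Cdh1), the main classical cadherin of all living epidermal layers, was lower at day 1 than at day 0 in wild-type skin. It read 2298 and 2085 at day 0, 1629, 1488 and 1910 at day 1, and 2191, 2152 and 1966 at day 7 in transgenic skin. In wild-type skin the readings were 1993, 2280 and 2159 at day 0, 1157, 1675 and 1671 at day 1, and 1859 and 1906 at day 7. In both genotypes every day 1 array lay below every day 0 array. The wild-type fall passed the test (log2 change -0.52 ± 0.13, adjusted p = 0.00829). In transgenic skin the change was -0.39 ± 0.14 (adjusted p = 0.0895), which passed on leaving out transgenic day 1 replicate 3 (-0.48, adjusted p = 0.0466) and on leaving out wild-type day 1 replicate 1 (adjusted p = 0.0292). The 2 day 1 changes differed by 0.14 ± 0.19 (adjusted p = 0.777, 95% interval -0.26 to 0.54). In wild-type skin the change from day 1 to day 7 was 0.34 ± 0.14 and did not pass (adjusted p = 0.199). Both wild-type day 7 arrays lay below all wild-type day 0 arrays. By day 7 Cdh1 was within -0.36 to 0.24 of day 0 on the log2 scale in transgenic skin (95% interval, adjusted p = 0.783). The return from day 1 to day 7 in transgenic skin was 0.33 ± 0.13 with an adjusted p of 0.0447, and this call was lost on leaving out any of 10 arrays: replicate 1 or 2 of transgenic day 0, day 1 or day 7 or of wild-type day 7, or replicate 2 or 3 of wild-type day 0. The call was also lost with no further scaling (0.31, adjusted p = 0.347), no filter (adjusted p = 0.0565) and no variance trend (adjusted p = 0.0572). Without 1 of these arrays the adjusted p was at least 0.0503, and it was highest on leaving out transgenic day 1 replicate 2 (0.169). In RefSeq's annotation (GRCm38.p6) Cdh3 and Cdh1 are neighbours on chromosome 8 with 0 protein-coding genes between them. Over the 16 arrays their log2 values had a Pearson r of 0.383, a description over 6 groups.

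Among the desmosomal cadherins, desmoglein 2 was higher in transgenic than in wild-type skin at day 7, and its brightest probe set fell in both genotypes at day 1. Dsg2 is the desmoglein found in most tissues that have desmosomes, and in skin it is known from the lower epidermis and the hair follicle. Its brightest probe set read 917 and 679 at day 0, 406, 448 and 500 at day 1, and 976, 1034 and 865 at day 7 in transgenic skin. In wild-type skin it read 716, 815 and 630 at day 0, 385, 396 and 474 at day 1, and 443 and 401 at day 7. The day 1 arrays of each genotype lay below all of its day 0 arrays, and the wild-type day 7 arrays stayed in the day 1 range. The day 1 fall was -0.77 ± 0.14 in transgenic skin (adjusted p = 0.00316) and -0.74 ± 0.13 in wild-type skin (adjusted p = 0.00125). These falls differed by -0.03 ± 0.19 (adjusted p = 0.96, 95% interval -0.44 to 0.37). On leaving out transgenic day 0 replicate 1, which left 1 array in that group, the transgenic change was -0.56. The other 3 kept Dsg2 sets did not pass at day 1 in the fit of all kept probe sets. They gave -0.30, -0.21 and -0.30 in transgenic skin (adjusted p = 0.329, 0.506 and 0.417) and -0.26, -0.42 and -0.25 in wild-type skin (adjusted p = 0.279, 0.079 and 0.387), and the mean of the 4 sets passed in both, at -0.40 and -0.42 (adjusted p = 0.038 and 0.0104).

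At day 7, Dsg2 averaged 958 ± 86.0 in transgenic skin (SD, n = 3) and 422 ± 29.9 in wild-type skin (SD, n = 2), a ratio of 2.27 and a log2 difference of 1.12 ± 0.14 (adjusted p = 2.03e-05). Against its own day 0, transgenic skin at day 7 had a log2 change of 0.27 ± 0.14 that missed the threshold (adjusted p = 0.157, 95% interval -0.04 to 0.57). On leaving out transgenic day 0 replicate 1, which left 1 array in that group, this change was 0.47. On the brightest set wild-type skin fell by 0.72 (SE 0.14, adjusted p = 0.00478), while the other 3 kept sets gave -0.42, -0.38 and -0.20 and did not pass (adjusted p = 0.171, 0.21 and 0.612). Without wild-type day 7 replicate 2, which left 1 array in that group, the wild-type change on the brightest set was -0.66. The day 7 change differed between the genotypes by 0.99 ± 0.20 (interaction term, adjusted p = 0.00253). Of the 6 Dsg2 probe sets, 4 passed the filter. In a fit of all 13890 kept probe sets, where 19.3% of sets were higher in transgenic than in wild-type skin at day 7, 3 of the 4 were. Sets 1425619_s_at and 1449740_s_at each gave 0.82 (adjusted p = 0.00284 and 0.00269), the brightest set 1439476_at gave 1.12 (adjusted p = 2.9e-05) and set 1460380_at gave 0.49 (adjusted p = 0.0953). At day 7 against day 0 in transgenic skin, where 19.2% of sets were higher, the same 2 sets ending in s_at were higher too, each by 0.49 on the log2 scale (adjusted p = 0.0492 and 0.0469), whereas the brightest set was not (adjusted p = 0.167). The mean of the 4 kept sets passed as well (0.36, adjusted p = 0.0208). Whether the Dsg2 change from day 0 to day 7 in transgenic skin passed the threshold thus depended on the probe set. Differences between the sets were not tested.

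**Figure D2:**
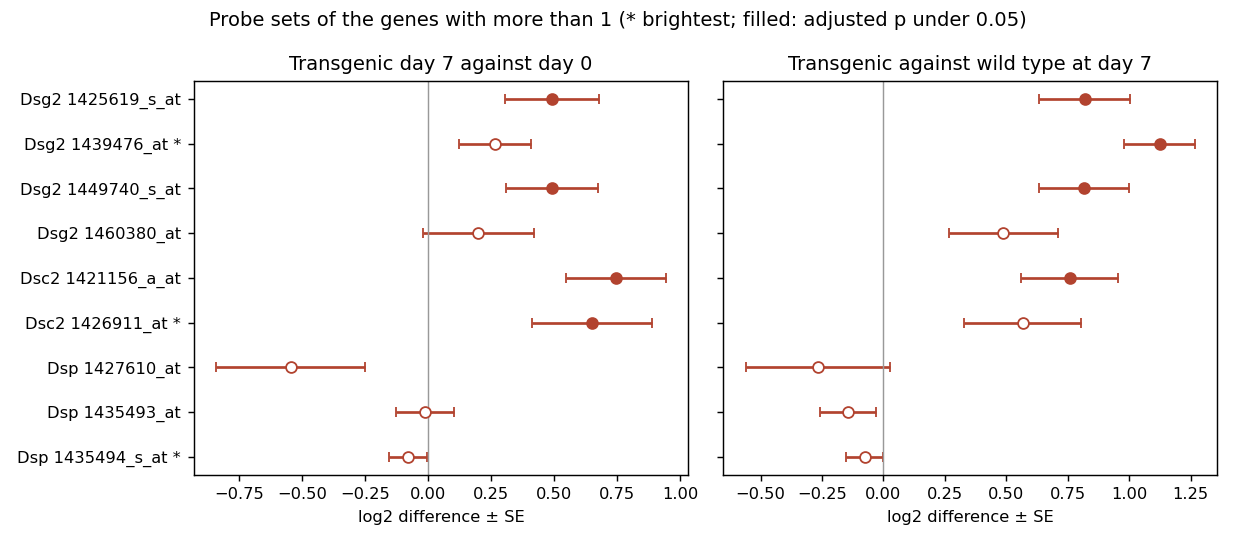
Log2 difference ± SE of each kept probe set of Dsg2, Dsc2 and Dsp, for transgenic day 7 over day 0 (left) and transgenic over wild type at day 7 (right); the brightest set of each gene has an asterisk and filled points passed the test. The 4 Dsg2 sets lie at 0.49 to 1.12 in the right panel, and 2 of them pass in the left panel. The Dsc2 set without an asterisk passed the filter on dim signals only through transgenic day 7 arrays. It had to be high there, so its points show values alone, whether filled or not.

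Desmocollin 2, the desmocollin of most epithelia, was dim, and it was higher at day 7 than at day 0 in transgenic skin. Its brighter probe set read 133 and 77.8 at day 0, 74.8, 85.5 and 59.5 at day 1, and 235, 210 and 114 at day 7 in transgenic skin, against 100, 106 and 106, then 60.2, 94.8 and 87.6, then 112 and 109 in wild-type skin at those days. Transgenic day 7 replicates 1 and 2 were above all other arrays, while replicate 3 lay below transgenic day 0 replicate 1. The rise over day 0 was 1.77-fold (log2 change 0.65 ± 0.24, adjusted p = 0.0405). The rise rested on single arrays, with an adjusted p of 0.153 on leaving out replicate 1 of transgenic day 7 and 0.124 on leaving out replicate 2 of that day. Without transgenic day 0 replicate 2, which left 1 array in that group, the log2 change was 0.36. Against wild-type skin at day 7 the log2 difference was 0.57 ± 0.24 (adjusted p = 0.0685), and without transgenic day 7 replicate 3 it was 0.83 (adjusted p = 0.00468). The rise from day 1 to day 7 in transgenic skin was larger, at 1.01 ± 0.21 (adjusted p = 0.00123), with all 3 day 7 arrays above all 3 day 1 arrays. The day 7 change did not differ between genotypes by the test (0.58 ± 0.34, adjusted p = 0.225, 95% interval -0.13 to 1.30), but did without transgenic day 7 replicate 3 (0.85, adjusted p = 0.035). The second Dsc2 probe set read 175, 147 and 130 on the transgenic day 7 arrays and 48.9 to 96.3 on the other 13. It passed the filter on dim signals only through 2 transgenic day 7 arrays and so had to be high there, and its change is given as a value alone (0.74 ± 0.20 over day 0).

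Desmocollin 1 moved the other way. Dsc1 read 886 and 1229 at day 0, 551, 647 and 529 at day 1, and 783, 706 and 640 at day 7 in transgenic skin. In wild-type skin it read 987, 791 and 895 at day 0, 705, 859 and 670 at day 1, and 803 and 667 at day 7. The transgenic arrays of days 1 and 7 lay below both transgenic day 0 arrays, whereas the wild-type days overlapped. Dsc1 fell by 0.83 on the log2 scale at day 1 (SE 0.15, adjusted p = 0.00302) and by 0.54 at day 7 (SE 0.15, adjusted p = 0.0102) in transgenic skin. Without transgenic day 0 replicate 2, the array with the highest Dsc1 reading, 1 array was left in that group. The changes were then smaller, at -0.60 and -0.31. In wild-type skin the changes were -0.25 ± 0.14 and -0.27 ± 0.15 (adjusted p = 0.194 and 0.279). The differences between the genotypes were -0.58 ± 0.20 at day 1 (adjusted p = 0.215) and -0.27 ± 0.21 at day 7 (adjusted p = 0.386), and neither passed. At day 7 the transgenic level minus the wild-type level had a 95% interval of -0.37 to 0.27 on the log2 scale.

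Desmocollin 3 rose at day 1 in wild-type skin. Dsc3 read 279 and 438 at day 0, 280, 280 and 225 at day 1, and 416, 354 and 386 at day 7 in transgenic skin, against 267, 168 and 310, then 402, 440 and 448, then 499 and 270 in wild-type skin. The wild-type day 1 arrays were all above the wild-type day 0 arrays, a 1.73-fold rise (log2 change 0.75 ± 0.21, adjusted p = 0.0187). It was lost on leaving out wild-type day 0 replicate 2 (0.53, adjusted p = 0.104) and on leaving out day 1 replicate 3 (0.73, adjusted p = 0.0526). All 3 transgenic day 1 arrays were below all 3 wild-type day 1 arrays, with a log2 difference of -0.66 ± 0.21 that missed the threshold after adjustment (adjusted p = 0.112). The day 1 change differed between genotypes by -1.14 ± 0.32 (unadjusted p = 0.00256, adjusted p = 0.153). In transgenic skin the changes from day 0 were -0.38 ± 0.24 at day 1 (adjusted p = 0.316) and 0.12 ± 0.24 at day 7 (adjusted p = 0.719).

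The desmosomal cadherin genes lie together on chromosome 18 in RefSeq's annotation, in the order Dsc3, Dsc2, Dsc1, then 4 further desmogleins (Dsg1c, Dsg1a, Dsg1b and Dsg4), then Dsg3 and Dsg2. In transgenic skin at day 7, the log2 change from day 0 was 0.12 for Dsc3, 0.65 for Dsc2 and -0.54 for Dsc1, 3 genes with 0 protein-coding genes between neighbours. Differences between these genes' changes were not tested.

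For the 3 genes of the proteins that link the cadherins to keratin, 0 passed limma's test at day 7 against day 0 in either genotype (passed by 38.6% of all genes in transgenic skin, 11.5% in wild-type skin), and 1 had an unadjusted p under 0.05 (Pkp1 in wild-type skin, log2 change -0.32 ± 0.12, adjusted p = 0.0893). These shares are of calls after adjustment, and unadjusted p-values were not counted over all genes. Plakoglobin (Jup), the catenin shared by desmosomes and adherens junctions, read 2209 and 2496 at day 0, 2084, 2300 and 1987 at day 1, and 2317, 2478 and 2116 at day 7 in transgenic skin. In wild-type skin the readings were 2218, 2139 and 2142 at day 0, 1607, 1965 and 1621 at day 1, and 2215 and 2299 at day 7. The transgenic days overlapped, and the wild-type day 1 arrays lay below all other wild-type arrays. At day 7 the transgenic change was within -0.25 to 0.19 on the log2 scale (95% interval, adjusted p = 0.849) and the difference from wild-type skin within -0.19 to 0.25. The wild-type fall at day 1 was -0.32 ± 0.09 (adjusted p = 0.0201). It was lost without wild-type day 0 replicate 1 (adjusted p = 0.055), day 0 replicate 2 (0.0523), day 1 replicate 1 (0.0899) or day 1 replicate 3 (0.0715).

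Plakophilin 1 (Pkp1), an armadillo protein that strengthens desmosomes chiefly in the suprabasal layers, fell at day 1 in wild-type skin. It read 5695 and 6231 at day 0, 5270, 5368 and 6526 at day 1, and 5175, 5867 and 5962 at day 7 in transgenic skin. In wild-type skin the readings were 7220, 7171 and 6201 at day 0, 3700, 4811 and 4289 at day 1, and 5649 and 5279 at day 7. Every wild-type day 1 array was below every other array, while the transgenic days overlapped. The wild-type fall was -0.69 ± 0.11 (ratio 0.622, adjusted p = 0.000626) and passed the test under each alternative run and on leaving out any 1 array. In transgenic skin the day 1 change was -0.06 ± 0.12 (adjusted p = 0.772, 95% interval -0.32 to 0.19). The difference of the 2 changes was 0.62 ± 0.16 (unadjusted p = 0.00139), and it missed the threshold over all genes (adjusted p = 0.125). Transgenic skin at day 1 was above wild-type skin at day 1 by 0.42 ± 0.11 (adjusted p = 0.0632), a difference that passed with quantile normalization (0.41, adjusted p = 0.0416).

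Desmoplakin (Dsp) is the cytolinker without which keratin does not attach to the desmosome. By the brightest probe sets, it had the smallest change of the members in every comparison against day 0 in wild-type skin. With the mean of each gene's probe sets its wild-type change at day 7 was 0.13, and that of Jup was 0.06. The brightest Dsp probe set read 6431 and 6575 at day 0, 5337, 5776 and 5477 at day 1, and 5791, 6684 and 6018 at day 7 in transgenic skin. In wild-type skin the readings were 6071, 6637 and 6475 at day 0, 6130, 5849 and 6049 at day 1, and 6584 and 6388 at day 7. The transgenic day 1 arrays lay below the other transgenic arrays, a change of -0.23 ± 0.08 that missed the threshold (adjusted p = 0.0624) and passed it with quantile normalization (-0.25, adjusted p = 0.0269) or with the mean of the gene's probe sets (-0.46, adjusted p = 0.0238). At day 7 the change was within -0.24 to 0.08 in transgenic skin and within -0.14 to 0.18 in wild-type skin (95% intervals). In the fit of all kept probe sets, set 1427610_at gave -0.91 at day 1 and -0.54 at day 7 in transgenic skin (adjusted p = 0.0653 and 0.165). Set 1435493_at gave -0.22 and -0.01 there (adjusted p = 0.246 and 0.947).

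Promoters are shown for Jup and Dsp, the linker genes for which the sequence table used here had an entry, and those of Cdh1, Cdh3 and Pkp1 were not used here. The sequences are RefSeq's on GRCm38.p6, the 250 bases before the annotated start, for Jup at chr11:100397791-100398040 on the minus strand and for Dsp at chr13:38151044-38151293 on the plus strand. Capitals mark GGGCGG or its reverse complement, the GC box read by Sp-family factors.
Jup: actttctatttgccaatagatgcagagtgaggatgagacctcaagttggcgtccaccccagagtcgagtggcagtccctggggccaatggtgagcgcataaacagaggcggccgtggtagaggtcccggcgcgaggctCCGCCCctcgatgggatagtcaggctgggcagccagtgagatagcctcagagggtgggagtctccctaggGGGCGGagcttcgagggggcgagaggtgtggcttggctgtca
Dsp: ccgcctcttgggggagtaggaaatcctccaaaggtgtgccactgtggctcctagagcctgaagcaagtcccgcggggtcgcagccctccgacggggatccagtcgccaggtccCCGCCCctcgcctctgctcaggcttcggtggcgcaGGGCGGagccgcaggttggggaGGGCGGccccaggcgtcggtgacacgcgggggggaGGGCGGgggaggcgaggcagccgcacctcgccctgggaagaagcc
GGGCGG was found 2 times before Jup and 4 times before Dsp, and 32.7% of 32851 RefSeq promoter windows of this length hold it on either strand. CTTTGA, a core of the sites bound by the TCF and LEF partners of beta-catenin, was found 0 times in both windows and in 13.8% of all windows. CANNTG, the E-box that Snail and Zeb factors can bind, was also found 0 times in both, and in 66.2% of all windows. These matches describe letters in 250 bases and say nothing of binding.

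At day 7 against day 0 in transgenic skin 38.6% of all genes passed the test (18.6% higher and 20.1% lower), and of the 9 members 2 were higher (Cdh3 and Dsc2) and 1 was lower (Dsc1). The members' median log2 change was -0.03, against 0.01 over all genes. On leaving out transgenic day 0 replicate 2, which left 1 array in that group, the changes of Dsc1 and Dsc2 were -0.31 and 0.36. At day 7, 40.5% of all genes differed between transgenic and wild-type skin (19.5% higher and 21.0% lower), and 2 of 9 members (Cdh3 and Dsg2) were higher and 0 lower. For the difference between the genotypes in the day 7 change, 23.8% of all genes passed (12.1% higher and 11.7% lower), and 2 of 9 members did, both higher, again Cdh3 and Dsg2. In wild-type skin from day 0 to day 7, 11.5% of all genes passed (5.48% higher and 6.00% lower) and 1 of 9 members did, Dsg2, which was lower. Leaving out wild-type day 7 replicate 2 left 1 array in that group. The log2 changes were then -1.01 for Cdh3, 0.96 for Dsc3 and -0.66 for Dsg2. In each of these 4 comparisons the share of members that passed was not above that of all genes.

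At day 1 most members that passed the test were lower. At day 1 against day 0 in transgenic skin, where 10.8% of all genes passed (6.62% higher and 4.19% lower), 2 of 9 members fell (Dsg2 and Dsc1), and the members' median log2 change was -0.36, against -0.03 over all genes. Leaving out either transgenic day 0 array left 1 array in that group. The Dsg2 change was then -0.56 without replicate 1, and the Dsc1 change was -0.60 without replicate 2. In wild-type skin, where 22.4% of all genes passed (10.1% higher and 12.3% lower), 4 of 9 members fell (Pkp1, Dsg2, Cdh1 and Jup) and 1 rose (Dsc3), with a median of -0.28, against -0.02. The count was 3 (Pkp1, Dsg2 and Cdh1) on leaving out wild-type day 0 replicate 2, and also on leaving out day 1 replicate 3. Over all genes 1233 and 1672 passed in these 2 fits, in place of 2028. From day 1 to day 7 in transgenic skin, where 44.2% of all genes passed (21.5% higher and 22.7% lower), 4 of 9 members rose (Cdh3, Dsg2, Dsc2 and Cdh1) and 0 fell, with a median of 0.33, against 0.02. In wild-type skin over the same days 3.16% of all genes passed after adjustment, and 0 of 9 members did by limma's test. Of the 9, 3 had an unadjusted p under 0.05 (Jup, Pkp1 and Cdh1), a measure not counted over all genes. Jup passed there on leaving out transgenic day 7 replicate 3 (0.38, adjusted p = 0.0479) and on leaving out wild-type day 1 replicate 2 (0.48, adjusted p = 0.0258).

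Between the genotypes, 0 of 9 members passed limma's test at day 0, where 0.0110% of all genes did, and 0 had an unadjusted p under 0.05. At day 1, where 1.25% of all genes passed, 0 of 9 members passed and 4 had an unadjusted p under 0.05 (Pkp1, Jup, Dsc3 and Dsc1). For the difference in the day 1 change, where 0.287% of all genes passed, 0 of 9 members passed and 3 had an unadjusted p under 0.05 (Pkp1, Dsc3 and Dsc1). The shares of all genes are of calls after adjustment, and unadjusted p-values were not counted over all genes. The comparisons within a genotype share their day 0 arrays. With no further scaling, 2 members rather than 5 passed in wild-type skin at day 1 (Dsc3 and Pkp1).

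**Figure D3:**
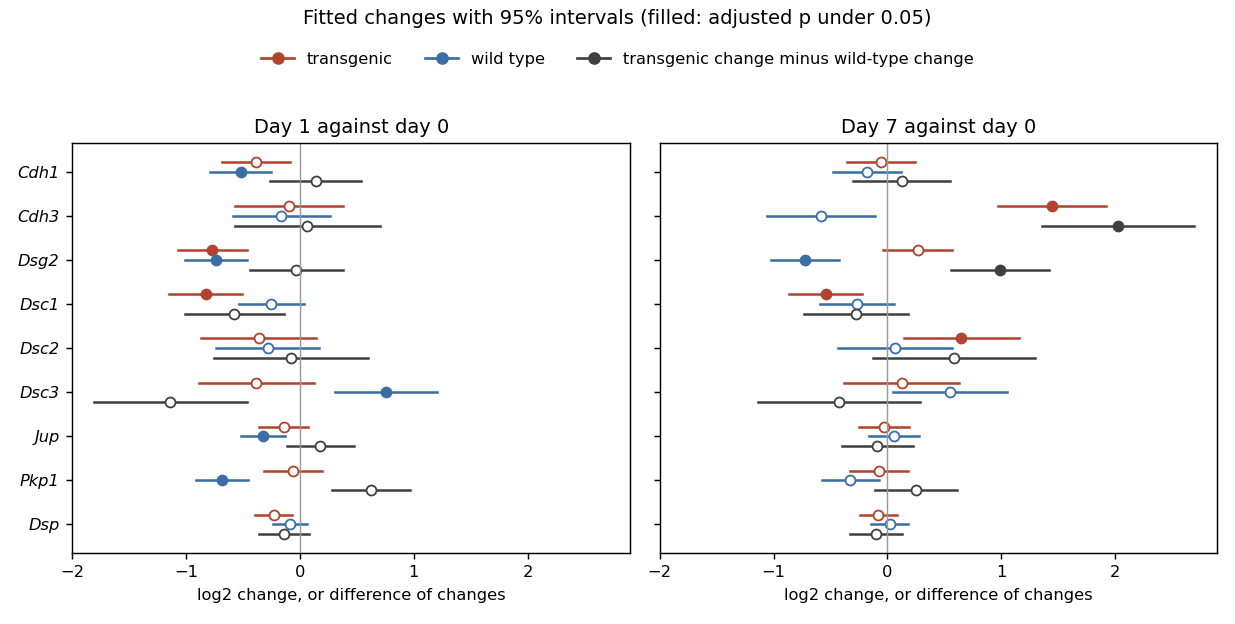
Fitted log2 change of each gene with its 95% interval, for day 1 (left) and day 7 (right) against day 0, in transgenic skin, in wild-type skin and as the difference between the 2 changes; filled points passed the test. Cdh3 (2.03) and Dsg2 (0.99) are the only filled differences between the genotypes, both at day 7.

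Other desmosome genes were also lower at day 1 in wild-type skin. Of 10 listed genes 6 were tested. In wild-type skin at day 1, where 22.4% of all genes passed, 4 of the 6 fell and 0 rose, with a median of -0.49: plakophilin 3 (Pkp3, -0.69, adjusted p = 0.000336), envoplakin (Evpl, -0.74, adjusted p = 0.000379), periplakin (Ppl, -0.53, adjusted p = 0.000462) and the tetraspan protein Perp. At day 7 in transgenic skin, where 38.6% of all genes passed, 2 of 6 fell, the plakins Ppl (2035 at day 7 and 3632 at day 0, log2 change -0.83 ± 0.09, adjusted p = 3.1e-06) and Evpl (-0.38 ± 0.12, adjusted p = 0.0183), which link desmosomes to the cornified envelope. The day 7 change differed between genotypes for 0 of the 6 by limma, and for 23.8% of all genes.

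Of the adherens junction partners 13 of 16 were tested, and at day 7 in transgenic skin 4 rose, 1 fell and the median was 0.19. These 5 of 13 are close to the 38.6% of all genes that passed. Plekha7, which anchors the zonula adherens to microtubules, rose by 0.61 ± 0.10 (adjusted p = 0.00018). Beta-catenin itself (Ctnnb1) averaged 7367 ± 368 at day 7 and 5619 ± 259 at day 0 in transgenic skin (SD, n = 3 and 2), a log2 change of 0.39 ± 0.08 (adjusted p = 0.000895), from a probe set for which it is not known whether it also reads the transgene. Nectin2, an immunoglobulin-type adhesion molecule, rose by 0.43 ± 0.13 (adjusted p = 0.0158). For 4 of the 13 partners the day 7 change was higher in transgenic than in wild-type skin, and for 0 it was lower. Of all genes 12.1% were higher and 11.7% lower by this measure. The phosphatase Ptprf was among the 4 (0.45 ± 0.13, adjusted p = 0.0202). In wild-type skin at day 1, where 12.3% of all genes fell, 5 of 13 partners did and 0 rose, among them Tjp1, Ptprf and Nectin3 (-0.31, -0.31 and -0.37).

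Of the other cadherins 6 of 11 were tested, and at day 7 in transgenic skin, where 38.6% of all genes passed, 2 rose and 2 fell. Of the 2 that rose, Cdh6 passed the filter on dim signals through the transgenic day 7 arrays alone (at most 92.9 elsewhere) and so had to be high there. Cadherin 11 (Cdh11), a mesenchymal cadherin, averaged 943 at day 7 and 314 at day 0 in transgenic skin (log2 change 1.49 ± 0.12, adjusted p = 2.47e-07). The glycosylphosphatidylinositol-anchored cadherin Cdh13 fell by 1.08 (SE 0.12, adjusted p = 4.1e-06) and the endothelial cadherin Cdh5 fell by 0.76 (SE 0.14, adjusted p = 0.000438). All 3 changes differed from those in wild-type skin, by 0.54, -0.62 and -0.80 (adjusted p = 0.0343, 0.0149 and 0.00796). The day 7 change differed between genotypes for 23.8% of all genes.

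Of the tight junction genes 9 of 13 were tested, with 2 higher and 2 lower at day 7 in transgenic skin (38.6% of all genes passed there). Claudin 10 rose (Cldn10, 1.12 ± 0.17, adjusted p = 9.09e-05), while the scaffold protein Tjp3 and the endothelial claudin Cldn5 fell (-1.04, adjusted p = 1.44e-05, and -0.53, adjusted p = 0.00935). In wild-type skin at day 1 (12.3% of all genes lower), 4 of 9 fell and 0 rose, including Tjp3, F11r and Cldn1 (-0.60, -0.45 and -0.50). Among 13 tested transcription factors known to act on junction genes, 3 rose and 2 fell at day 7 in transgenic skin, a share no higher than the 38.6% of all genes. Zeb1, known to repress Cdh1 in human carcinoma cells, fell by 1.17 (SE 0.10, adjusted p = 4.71e-07), while Snai1, a repressor of the same gene, rose from a dim level by 0.72 (SE 0.15, adjusted p = 0.0016). Grhl1 and Grhl2, grainyhead-like factors of epithelial cells, fell at day 1 in wild-type skin (-0.79, adjusted p = 0.000195, and -0.47, adjusted p = 0.00819), and Zeb2 rose there by 1.00 (adjusted p = 0.00657).

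Of the genes of corneodesmosomes and their proteases 11 of 15 were tested, with 3 higher and 3 lower at day 7 in transgenic skin (18.6% and 20.1% of all genes). The protease matriptase (St14) rose by 1.01 ± 0.12 (adjusted p = 1.19e-05) and the kallikrein Klk6 by 1.41 ± 0.24 (adjusted p = 0.000242), while corneodesmosin (Cdsn), the adhesive protein of the cornified layer, fell by 0.60 (SE 0.12, adjusted p = 0.000847). In wild-type skin at day 1, where 12.3% of all genes fell and 10.1% rose, 6 of 11 fell and 1 rose, with St14 (-0.87), Cdsn (-0.74) and Klk8 (-0.67) among those that fell.

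**Figure D4:**
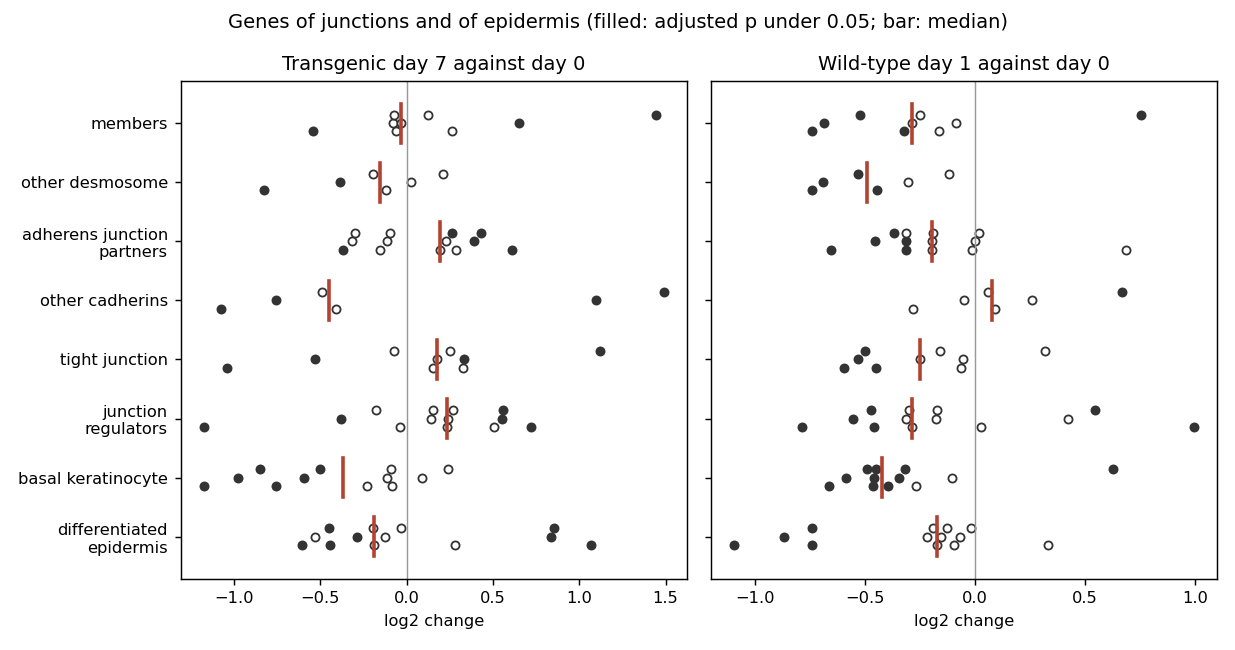
Log2 change of each tested gene by list (points, filled where the test was passed; bars are list medians) for transgenic day 7 over day 0 (left) and wild-type day 1 over day 0 (right). In the right panel the medians of 7 of the 8 lists lie below 0, at -0.49 (other desmosome) to -0.17 (differentiated epidermis), and that of the other cadherins is 0.08.

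Markers of cell types moved with these results, and their part in them was not tested. Of 14 tested hair follicle genes, 9 (Krt25 among them) passed the filter on dim signals through the transgenic day 7 arrays alone and so had to be high there, and of the other 5, 4 rose and 1 fell at day 7 in transgenic skin, where 38.6% of all genes passed. The summed intensity of the 14 includes these 9 and is given as a value alone. It was 35400 to 55873 at day 7 and 2453 to 3004 at day 0 in transgenic skin, with 2090 to 2140 in wild-type skin at day 7. The inner root sheath keratin Krt25, 1 of these 9 and likewise given as a value alone, averaged 8654 in transgenic skin at day 7 and 3.49 to 11.4 in the other 5 groups. In the same skin 6 of 12 basal keratinocyte genes fell and 0 rose, with a sum of 36570 to 37111 at day 7 and 46175 to 52888 at day 0. Col17a1, Dst and Lamb3, which attach basal cells to the basement membrane, fell by 1.18, 0.97 and 0.76 on the log2 scale, while the basal keratins Krt5 and Krt14 gave -0.23 and -0.08 and did not pass (adjusted p = 0.0874 and 0.507). Of the differentiated epidermis genes 3 of 13 rose and 4 fell, with Flg higher (0.84) and Lor lower (-0.44).

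The same skin had less of the deeper tissue markers. Skeletal muscle genes fell for 10 of 12, fat cell genes for 7 of 8 and endothelial genes for 7 of 8, with 0 higher in each. Of the fibroblast genes 3 of 11 rose and 2 fell. In that comparison, day 7 against day 0, 18.6% of all genes were higher and 20.1% lower. Macrophage genes were above their day 0 level at day 1 in wild-type skin for 10 of 11, with 0 lower. Their sum was 35012 to 39131 at day 1 and 17699 to 21078 at day 0. Of all genes 10.1% were higher and 12.3% lower at day 1 in wild-type skin. Macrophage genes also rose for 9 of 11 at transgenic day 1, where Dsg2 and Dsc1 fell (sum 26208 to 38570 at day 1 and 17002 to 19459 at day 0). At wild-type day 7 they rose for 10 of 11 (sum 39615 to 40319). Against day 0, 6.62% of all genes were higher at transgenic day 1 and 5.48% at wild-type day 7. At day 7 macrophage genes were lower in transgenic than in wild-type skin for 10 of 11 (sum 17109 to 29050 in transgenic skin). In that comparison Cdh3 and Dsg2 were higher, and 21.0% of all genes were lower. In wild-type skin at day 1, where Pkp1, Dsg2, Cdh1 and Jup fell, 9 of 12 basal keratinocyte genes were lower and 1 (Itgb1) was higher, with Krt5 and Krt14 at -0.32 and -0.35 (adjusted p = 0.02 and 0.0067), and the basal sum was 38296 to 43872 at day 1 and 48570 to 52680 at day 0. Differentiated epidermis genes fell for 4 of 13 there, and 0 rose. Of 4 heart muscle genes, listed as a check, 1 was tested (Tnnt2), and it passed the filter through 2 wild-type day 0 arrays alone, at 23.0 to 149 over all arrays.

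Over the 16 arrays, which share 6 groups, the genes outside the set with a course most like that of Cdh3 were Hoxc13, Lmo4 and Macroh2a2 (Pearson r of log2 values 0.943, 0.943 and 0.940). Hoxc13 is a homeobox gene of the hair shaft, and it was also on the hair follicle list. The genes most like Dsc2 were Stx6, Gtf2h4 and Ap1m2 (0.932, 0.927 and 0.916), and those most like Dsc1 were Pcmtd2, Akap1 and Cep68 (0.860, 0.840 and 0.833). Within the set the highest r values were 0.765 for Cdh1 and Dsg2, 0.753 for Cdh1 and Pkp1, 0.720 for Dsg2 and Dsc2 and 0.712 for Cdh3 and Dsg2. The lowest was -0.561, for Pkp1 and Dsc3. These values describe the 16 arrays, in which groups of replicates share a level.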

How the data were processed

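Per the labels, cRNA made from skin RNA and tagged with biotin was measured on 1 array per preparation. The authors deposited 1 linear intensity for each of 22690 probe sets, 64 of them controls that were left out. Not given in the sources used here are the summarising software and any scaling by the authors. Of the probe sets 20380 carry 1 gene symbol in the platform annotation, 691 several and 1555 none. Titles gave the group of each array (genotype and day). Trimmed means (2% removed at each end) differed by over 10%, so arrays were scaled by factors of 0.825 to 1.26. A probe set was kept if it exceeded its array's 40th percentile (101 to 132 in scaled intensity) on at least 2 arrays. This kept 15069, of which 13890 had 1 symbol, and the brightest of each gene was used. Values were taken as log2(intensity + 32), which understates changes of dim genes. All 16 arrays entered 1 limma fit (limma 3.58.1, R 4.3.3, lmFit, eBayes with a trend, two-sided, 10 residual degrees of freedom) with 6 group means and 11 comparisons. The same procedure was also run on simulated data. P-values were adjusted by the Benjamini-Hochberg method over 9064 genes. The number of arrays limits the precision. Figures were drawn with matplotlib 3.10.9 in Python 3.11.15.

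The genes of the set and the 15 lists (176 genes, 145 tested) were chosen with earlier results of these data known. Named are all members and their probe sets; from each list up to 3 genes with the smallest p among those past the threshold at day 7 in transgenic skin, at day 1 in wild-type skin and in the difference of day 7 changes (up to 2 of the brightest where none passed); Ctnnb1, Esr1, Krt5, Krt14 and Krt25; and, for the 3 members with the largest day 7 change past the threshold, the 3 genes with the highest Pearson r. Alternatives covered normalization, the added value, the filter, the choice of probe set, the variance trend, the arrays in the fit, replicate number as a block and each array left out in turn.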

Additional observations from a re-analysis of the deposited data

Results flagged for a closer look

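The change from day 0 to day 7 differed between the genotypes for 2 of the 9 measured genes, by the interaction term of the limma fit. It differed for 23.8% of all genes, so the share of members was not above that of all genes. For Cdh3 the transgenic change exceeded the wild-type change by 2.03 on the log2 scale (adjusted p = 0.000403), with 3 of 3 transgenic day 7 arrays above all other arrays; over the 16 fits that each left out 1 array it ranged from 1.60 to 2.45. For Dsg2 the difference was 0.99 (adjusted p = 0.00253), with 3 of 3 transgenic day 7 arrays above both wild-type day 7 arrays; leaving out each array in turn gave 0.78 to 1.20.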

How the results depend on the processing

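No member's call changed direction under any alternative. Cdh3 (transgenic day 7 against day 0 and against wild type, and the difference of day 7 changes) and Dsg2 (transgenic against wild type at day 7) passed under all 11 alternatives and on leaving out each of the 16 arrays. Among the 11 processing alternatives, the number of members past the threshold changed by over 1.5 times in 5 cases. With quantile normalization it was 2 in place of 1 for wild-type day 7 against day 0 (Pkp1 gained, -0.35, adjusted p = 0.0351) and 1 in place of 0 for transgenic against wild type at day 1. With no further scaling it was 0 in place of 1 for wild-type day 7 against day 0 (Dsg2, -0.76, adjusted p = 0.0827), 2 in place of 5 for wild-type day 1 against day 0, and 1 in place of 2 for the difference of day 7 changes (Dsg2, 0.88, adjusted p = 0.113). With no further scaling fewer of all genes passed, for example 466 in place of 2028 for wild-type day 1 against day 0, 1774 in place of 3502 for transgenic day 7 against day 0 and 724 in place of 2153 for the difference of day 7 changes; the cause was not tested. Dsc2 at day 7 against day 0 in transgenic skin lost its call with quantile normalization (0.54, adjusted p = 0.107), no further scaling (0.53, 0.219), no filter (0.65, 0.0533) and only the groups compared (0.65, 0.125), and the filter at the 60th percentile on 3 arrays leaves it out. Leaving out each array in turn gave 1 to 4 members for transgenic day 7 against day 0, 1 to 3 for day 1 against day 0 and 3 to 4 for day 7 against day 1; 1 to 2, 3 to 5 and 0 to 1 for wild-type day 7 against day 0, day 1 against day 0 and day 7 against day 1; 0 to 0, 0 to 0 and 2 to 3 for transgenic against wild type at days 0, 1 and 7; and 0 to 0 and 2 to 3 for the differences of day 1 and day 7 changes. Leaving out a transgenic day 0 or wild-type day 7 array left 1 array in that group, and the counts over all genes are not set beside these ranges. Replicate numbers did not pair the arrays: over 36 same-numbered pairs the deviations from the group means had r from -0.25 to 0.19, 7 of them above 0.1, and 6 of 16 arrays correlated best with their own number. With the replicate block the counts were 3, 2 and 4 for transgenic day 7 against day 0, day 1 against day 0 and day 7 against day 1, 1, 5 and 0 for the same days in wild-type skin, 0, 0 and 3 between genotypes at days 0, 1 and 7 (Dsc2 gained, 0.64, adjusted p = 0.0489) and 0 and 2 for the differences. Cdh1 at day 7 against day 1 in transgenic skin lost its call with 3 alternatives (no further scaling, no filter, no variance trend). Signal over background limits Cdh3 in wild-type skin at day 7 (1 of 2 arrays above the 40th percentile) and Dsc2, whose brighter probe set was above the 40th percentile on 4 of 16 arrays.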
